A study of Potamopyrgus antipodarum with 6 samples.

Results

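Even stretches of intermediate methylated-DNA signal were examined in foot tissue of Potamopyrgus antipodarum. This New Zealand mud snail reproduces by parthenogenesis and is an invader of North American waters. DNA was precipitated with an antibody against methylated cytosine and sequenced (MeDIP-Seq), and reads were counted in windows of 100 bp along a transcriptome reference whose contigs were joined into 1 sequence. There were 3 river pools (numbers 10, 11 and 12, collected at Ritter Island, Idaho, in a Snake River side channel) and 3 lake pools (numbers 1, 2 and 3, from Lake Lytle, Oregon). Each pool held DNA of 10 individuals, and all snails had been kept at 14 °C for several days. The labels give no ages, treatments or genotypes. Since there was 1 site per habitat, site and habitat cannot be told apart.

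The stretches were chosen by the counts of each window summed over the 6 pools. Windows belonged to 1 covered stretch until a gap of at least 8 successive windows had no count in any pool. An even stretch had 5 or more windows, no window above 240 summed counts, and 31 to 240 summed counts in every window except the first and the last. This held for 4443 of 43878 stretches (10.1%), with 27834 windows, which were 12.7% of the 218652 covered windows. Of the other stretches of 5 or more windows, 3900 were equally unbroken but reached above 240 counts (heavy stretches). Another 5213 had no window above 30 counts, and 9820 mixed dense and sparse windows (mixed stretches). The levels and the evenness of the summed counts are the work of this choice and are given as a description. The split of those counts between the pools was not a condition of it. The sums were of unscaled counts, however, so pools with more counts weighed more in the choice. River pools 10 and 11, with the lowest total counts, weighed least. The choice is thus not independent of the split, and the part of this weighting in the differences between sites was not tested.

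In animals DNA methylation is placed on cytosines of CpG sites by DNA methyltransferases. In molluscs and many other invertebrates it lies mostly in the bodies of genes, often genes that are active in many tissues, while much of the rest of the genome carries little. The antibody pulls down more of a fragment that has more methylated cytosines. A MeDIP count therefore follows the methylation, the CpG content and the copy number of a window together, and is not a methylation level. Because the reference is made of expressed sequence, each stretch lies in transcribed sequence, and a fragment can be counted in neighbouring windows.

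Most even stretches were short runs within the class. The median was 6 windows (range 5 to 23), or 600 bp (500 to 2300 bp). Of the 4443, 1867 (42.0%) had 5 windows, 1286 (28.9%) had 6, and 241 (5.42%) had 10 or more. Inner windows, those other than the first and last, had a median of 80 summed counts. The densest inner window of a stretch had a median of 2.05 times the counts of its sparsest one (highest 7.18 times). The coefficient of variation of the inner windows had a median of 31.3%, against 41.5% in the heavy stretches.

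Summed counts were lower at the ends of the stretches and differed less among the positions inside. The drop is in part the work of the rule, which left the end windows free of its lower limit. An end can also be the edge of a contig, and the part of such edges in the drop was not tested. Positions further from the end come only from longer stretches. Mean summed counts were 28.8 in the outermost window, 83.5 in the next, and 95.5, 98.1, 97.3 and 93.2 in windows 3 to 6 from the nearer end. First and last windows both had a median of 20 counts. Both ends reached 31 counts in 507 stretches (11.4%), and 2424 of the 8886 end windows (27.3%) had under 10 counts. The mean count of end windows was 0.335, 0.343 and 0.317 of that of inner windows in river pools 10, 11 and 12, against 0.320, 0.317 and 0.312 in lake pools 1, 2 and 3. The sites overlapped in this ratio, with a river mean of 0.332 ± 0.0136 (SD, n = 3) and a lake mean of 0.317 ± 0.00425 (SD, n = 2). The difference was 0.0146, with an exact two-sided permutation p of 0.3, where 0.1 is the smallest these samples allow. Here and in all means lake pools 2 and 3 were averaged as 1 sample. Window by window their counts differed by less than sampling noise (chi-square per window of 0.861 in even stretches and 0.780 outside). Lake pools 1 and 3 gave 0.950 and 1.15 and were kept apart. This likeness is one of window counts only, and the shares of counts given below differed between lake pools 2 and 3.

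**Figure D1:**
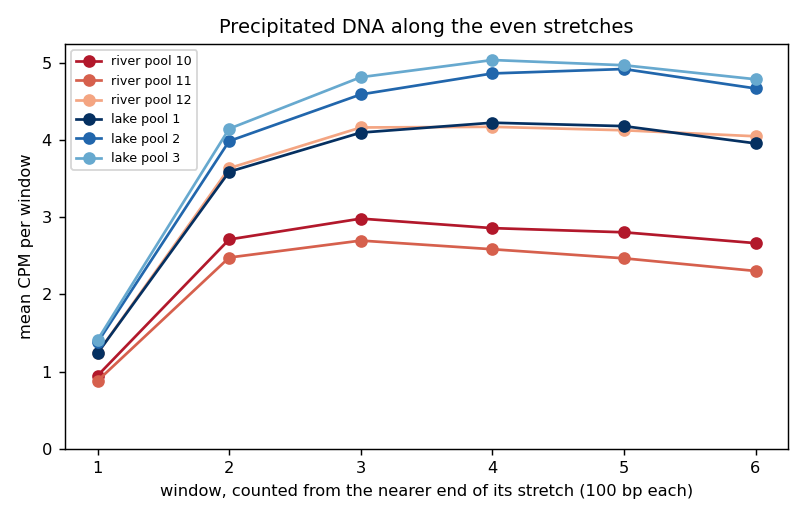
Mean CPM per 100 bp window (y axis) against the position of the window from the nearer end of its stretch (x axis), with 1 line per pool for the 4443 even stretches. All pools step up after the outermost window, which the rule left free of its lower limit. River pools 10 and 11 stay below river pool 12 and the 3 lake pools at every position.

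Stretches were about as numerous just inside as just outside the limits of the rule. There were 161 stretches whose sparsest inner window had 31 counts and 156 otherwise alike at 30. At the upper limit, 14 reached 240 counts and 13 had their densest window at 241. With 4 windows instead of 5, 1761 stretches met the remaining conditions. Median log2 fold changes between the sites, described below, were -0.48 just inside and -0.40 just outside the lower limit, and -0.52 and -0.43 at the upper one. They were -0.41 at 5 windows and -0.32 at 4.

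Total counts were 2721381, 2212650 and 4175301 in river pools 10, 11 and 12, against 4040377, 4435396 and 5013750 in lake pools 1, 2 and 3. The counts per even stretch were therefore modest, with medians of 30, 20 and 74 in the river pools and 70, 89 and 107 in the lake pools. A single inner window had a median of 6, 4 and 15 counts in the river pools, against 14, 18 and 22 in the lake pools. At this depth 913 of the 18948 inner windows were empty in river pool 11 and 278 in river pool 10, against at most 8 in any other pool. Only river pools 10 and 11 had even stretches with no count at all, 2 and 6 of them. With all pools thinned to 2212650 counts, 12.5%, 15.8% and 8.34% of the windows were empty in river pools 10, 11 and 12, against 8.28%, 7.37% and 6.71% in lake pools 1, 2 and 3. This was 12.2% ± 3.74 in the river (SD, n = 3) and 7.66% ± 0.880 in the lake (SD, n = 2), 4.56 percentage points apart (exact permutation p of 0.2, smallest possible 0.1).

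The even stretches took 5.65%, 4.64% and 8.80% of all counts in river pools 10, 11 and 12, against 8.69%, 10.2% and 10.7% in lake pools 1, 2 and 3. River pool 12 lay just above lake pool 1, so the sites overlapped, and river pools 10 and 11 lay below all others. The means were 6.36% ± 2.17 in the river (SD, n = 3) and 9.58% ± 1.25 in the lake (SD, n = 2). They were -3.21 percentage points apart, more than either SD, but the exact permutation p was 0.3 (smallest possible 0.1). Without river pool 12 it was -4.43 points (exact permutation p of 0.333). The order of the 6 shares was the order of the 6 total counts. The part of depth in this order was not tested, since thinning the counts of a pool leaves such a share as it is. The heavy stretches ran the other way, with 54.6%, 55.1% and 51.5% of the counts in river pools 10, 11 and 12, against 52.1%, 51.0% and 49.6% in lake pools 1, 2 and 3 (exact permutation p of 0.3).

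**Figure D2:**
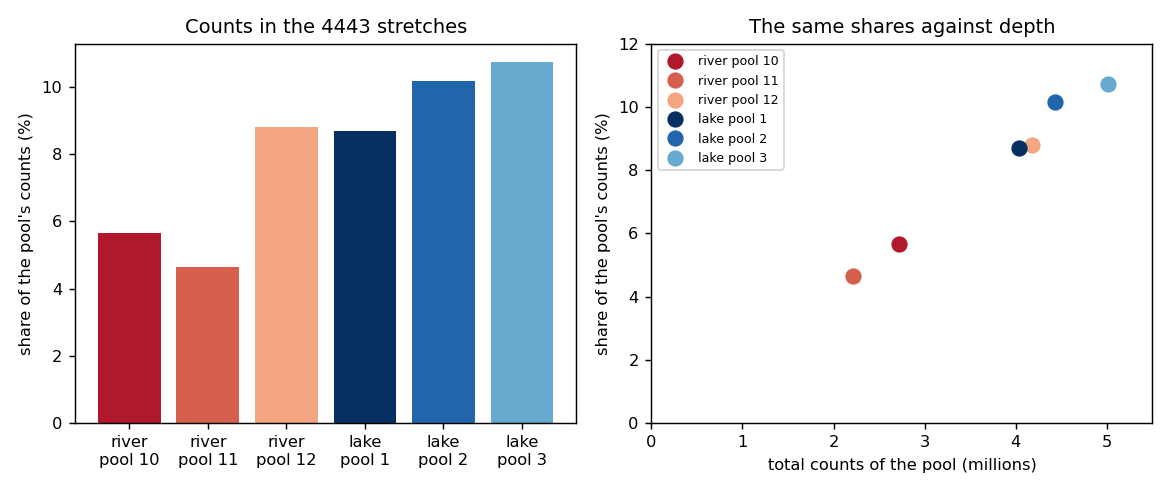
Share of the counts of each pool that fell in the 4443 even stretches (y axes, %), by pool on the left and against the total counts of the pool (1 unit is 1e6 counts) on the right. River pools 10 and 11 have the lowest shares (5.65% and 4.64%) and the lowest totals, and river pool 12 (8.80%) sits beside lake pool 1 (8.69%).

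The comparison was repeated within windows of like density. Of the counts in all windows of 31 to 240 summed counts, the even stretches held 25.3%, 23.5% and 29.5% in river pools 10, 11 and 12, against 29.7%, 31.6% and 31.7% in lake pools 1, 2 and 3. Every river pool lay below every lake pool, with river pool 12 and lake pool 1 side by side. Means were 26.1% ± 3.09 (SD, n = 3) in the river and 30.7% ± 1.36 (SD, n = 2) in the lake, with an exact permutation p of 0.2. With the 6 pools kept apart it was 0.1, the smallest possible. Relative to the mixed stretches, the counts of the even stretches had a log2 ratio of -1.78 ± 0.40 (SD, n = 3) in the river and -1.23 ± 0.15 (SD, n = 2) in the lake (exact permutation p of 0.2).

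Pool by pool, the even stretches separated river pools 10 and 11 from the rest. Levels below are CPM, counts per 1e6 counts of the TMM-scaled total of the pool. The median even stretch had 11.65, 10.98 and 16.87 CPM in river pools 10, 11 and 12, against 16.67, 18.95 and 19.37 CPM in lake pools 1, 2 and 3. The median log2 ratio to lake pool 1 over the stretches was -0.51 for river pool 10, -0.60 for river pool 11 and 0.00 for river pool 12. Within the river, pool 10 was at -0.50 and pool 11 at -0.60 relative to pool 12. Differences within the river site were thus as large as those between river pools 10 or 11 and lake pool 1. In the heavy stretches the same ratios to river pool 12 were 0.16 and 0.25.

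Counts of individual windows gave this picture only in part. A chi-square that compares the counts of a pair of pools gave 1.06 per window for river pools 10 and 11 within the even stretches, where counting noise alone gives about 1. Between river pool 12 and the other river pools, 10 and 11, it was 1.27 and 1.33. Between river pool 12 and lake pools 1, 2 and 3 it was 1.22, 1.65 and 1.48. By this measure river pool 12 was nearer to the other river pools than to lake pools 2 and 3. River pools 10 and 11 had the lowest counts, at which this value moves little from 1. Their Spearman correlation over windows was 0.62, against 0.85 to 0.89 for the lake pairs. The 3 lake pairs gave 0.861 (pools 2 and 3), 0.950 (pools 1 and 3) and 1.02 (pools 1 and 2). River pools 10 and 11 gave 1.38 to 1.87 with the lake pools. Outside the even stretches, pairs reached up to 5.36 per window.

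To determine which stretches differed between the sites, counts were summed over each stretch and tested with the edgeR quasi-likelihood test over all 37710 stretches with 10 or more counts. All 4443 even stretches were tested. Fold changes are river over lake, and p-values were adjusted by the Benjamini-Hochberg method. No even stretch was called at an adjusted p under 0.05, where 0.00796% of all tested stretches were called, and the lowest adjusted p was 0.0562. At an unadjusted p under 0.05 there were 1560 even stretches (35.1%), against 24.2% of all tested stretches and 34.9% of the heavy ones. The 1560 were 80 higher and 1480 lower in river pools, where 12.6% and 11.6% of all tested stretches lay higher and lower. The heavy stretches had 981 higher and 379 lower. With offsets that remove the trend of fold changes with count, the even stretches had 223 higher and 874 lower (24.7% in either direction). The heavy stretches then had 378 higher and 1102 lower (37.9%). In the mixed stretches the share was 23.7%, and in stretches of 1 to 4 windows 21.4%. The 1560 became 866 with lake pools 2 and 3 summed as 1 sample, 831 without river pool 10, 842 without lake pool 2, 845 without lake pool 3 and 2737 without river pool 12. Shares over all tested stretches at this unadjusted threshold are not given for these refits. The numbers therefore do not show whether even stretches changed more than others. The edgeR exact test called 730 even stretches (16.4%, against 10.8% of all tested stretches), and DESeq2 called 433 (9.75%, against 8.24%). The call depended on river pool 12. Without it the quasi-likelihood test called 2183 even stretches, 62 higher and 2121 lower in the river (49.1%, against 29% of all tested stretches). Without river pool 11 it called 3, and without any of the other 4 pools 0.

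As a group the even stretches had a fold change below 0 in most of their members, with no test over the group. Their median log2 fold change was -0.47, with quartiles of -0.73 and -0.18, and 638 (14.4%) were above 0. Over all tested stretches the median was -0.05. It was 0.18 in the heavy stretches, -0.17 in the mixed ones and 0.09 in stretches of 1 to 4 windows. Without river pool 12 the median of the even stretches was -0.73, and without river pool 10 or 11 it was -0.39 or -0.36. Fold changes in these pools moved with the count of a stretch. With offsets that remove this trend, the even stretches had a median of -0.23, the heavy stretches turned to -0.10, and all tested stretches had -0.01. The quasi-likelihood test then called 112 even stretches, 32 higher and 80 lower in the river (2.52%, against 2.22% of all tested stretches). Of the heavy stretches it called 5.97%, 58 higher and 175 lower. With scaling by library size alone, the median over all tested stretches shifted to -0.22, and that of the even stretches was -0.63.

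**Figure D3:**
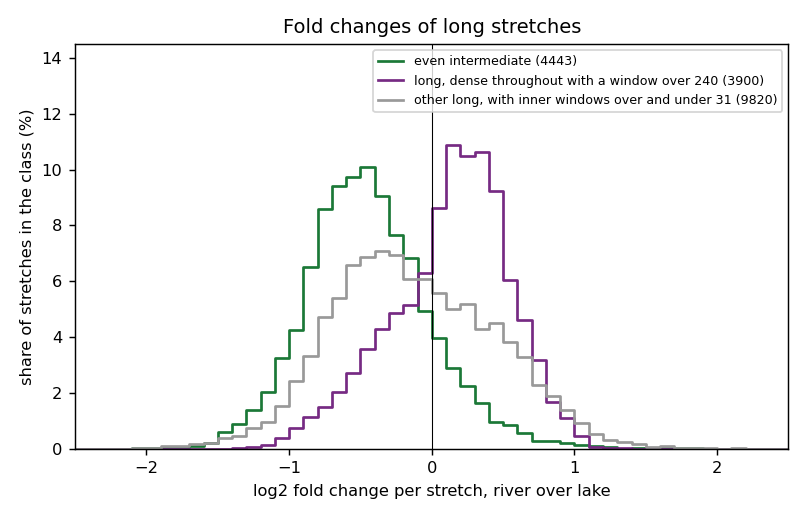
Distribution of the log2 fold change per stretch, river over lake (x axis), as the share of stretches in each of 3 classes of long stretches (y axis, %). The even stretches peak left of 0 (median -0.47), the heavy stretches right of 0 (median 0.18), and the mixed stretches lie between (median -0.17).

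In 1693 even stretches (38.1%) the CPM of the 2 sites did not overlap, against 27.2% of all tested stretches. In 105 (2.36%, against 11.4%) every river pool was above every lake pool, and in 1588 (35.7%, against 15.7%) every river pool was below. With offsets that remove the trend with count these numbers were 276 and 1115, and with library size alone 57 and 1729. The heavy stretches had 20.7% above and 15.2% below, and the mixed stretches 10.3% above and 18.5% below. Without river pool 12, 3048 even stretches lay wholly lower and 162 wholly higher in the river. Without lake pool 1, these numbers were 2410 and 155. Leaving out a pool makes non-overlap more likely in any stretch. Shares over all tested stretches are not given for these other scalings and sets of pools. The changes in number are therefore not a result about the even stretches.

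Longer even stretches were below 0 more often, given here as a description. The median log2 fold change was -0.41 at 5 windows, -0.48 at 6, -0.47 at 7, -0.56 at 8 to 9, -0.57 at 10 to 12 and -0.56 at 13 to 23 windows. The share above 0 was 20.0%, 13.5%, 9.93%, 4.95%, 4.89% and 3.51% in the same order of length. The groups of longer stretches are small (57 stretches at 13 to 23 windows), and longer stretches hold more counts. By position, median log2 fold changes per window were -0.40 in the outermost window and -0.39, -0.43, -0.50, -0.50 and -0.54 in the next 5 positions. Windows 4 to 6 from the nearer end occur only in stretches of 7 or more windows, so these positions do not compare the same stretches.

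Inner windows of 1 stretch often shared the sign of their fold change, given here as a description. Shared signs were likely beforehand. Only 22.9% of the tested windows of even stretches were above 0, and 42.0% of the stretches had just 5 windows. Neighbouring windows can also count the same fragment. In 2640 (59.4%) all inner windows had a fold change of 1 sign, of which 2371 were lower and 269 higher in the river. In the heavy stretches this was 55.4%, with 697 lower and 1462 higher. Within an even stretch the window fold changes had a median SD of 0.32 on the log2 scale, while the stretches differed among each other with an SD of 0.44. Leaving out 1 pool moved the share of 1 sign to between 51.9% (without river pool 10) and 69.0% (without river pool 12).

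In the test per window, 25410 of the 27834 windows had the 10 counts needed, and the other 2424 were end windows. The quasi-likelihood test with Benjamini-Hochberg adjustment over all 146394 tested windows called 251 windows of even stretches (0.988%, against 1.09% of all tested windows). That share is near the background. Of the 251, 35 were higher in the river (0.138%, against 0.669%) and 216 were lower (0.850%, against 0.419%). This direction was not particular to even stretches at like counts. At 121 to 240 counts, 19 windows were called higher and 112 lower of 4374 in even stretches, and 20 and 79 of 4246 in heavy ones. It was 46 and 42 of 4144 in mixed stretches and 112 and 19 of 3014 in stretches of 1 to 4 windows. At 61 to 120 counts it was 9 and 82 of 9597, 4 and 16 of 2852, 34 and 92 of 10184, and 30 and 16 of 4404 in the same order. The called share in even stretches was near that of all other windows, 2.99% against 2.79% at 121 to 240 counts. At 61 to 120 counts it was 0.948% against 1.1%. Under offsets that remove the trend with count the test called 414 windows of even stretches (1.63%, against 3.14% of all tested windows), 171 higher and 243 lower. With library size alone these were 6 higher and 158 lower. The number rested on single pools. It was 5093 without river pool 12, 132 without river pool 11, 131 without lake pool 1, and 0 without river pool 10, lake pool 2 or lake pool 3. With lake pools 2 and 3 summed as 1 sample it was also 0.

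Called windows were scattered. The 251 lay in 186 stretches, of which 134 had 1 called window, 41 had 2 and 11 had 3 or more. No stretch held windows called in opposite directions, which the 134 with 1 called window could not. There were 163 stretches lower and 23 higher in the river. Only 15 of the called windows were first or last windows, of 6462 end windows tested. End windows hold few counts, and of 3455 windows of even stretches with 10 to 30 counts, 2 were called.

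Set beside windows of equal density, the windows of even stretches still sat lower in the river. At 31 to 60 summed counts their median log2 fold change was -0.39, against -0.23 for all other windows of those counts. At 61 to 120 counts it was -0.45 against -0.25, and at 121 to 240 counts -0.41 against -0.03. Windows of mixed stretches had -0.26, -0.32 and -0.15 in these 3 ranges, and windows of stretches of 1 to 4 windows -0.14, -0.06 and 0.26. With the trend removed, the even stretches had -0.18, -0.18 and -0.26 and the other windows -0.03, 0.02 and 0.09. These medians are descriptions, and the test over pools of the same contrast is the share of counts in windows of 31 to 240 given above (exact permutation p of 0.2).

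**Figure D4:**
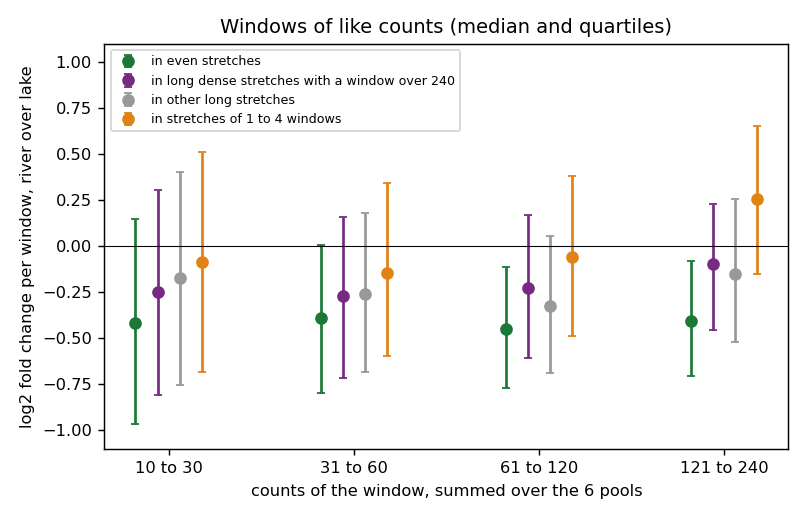
Log2 fold change per window, river over lake (y axis, points are medians and bars quartiles), in 4 ranges of summed counts (x axis) for windows of even, heavy, mixed and short stretches. The even stretches have the lowest median in each range, between -0.39 and -0.45.

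Even stretches occurred along the whole joined sequence. In 10 equal parts of its length they made up between 12.4% and 25.5% of the stretches of 5 or more windows, and their median log2 fold change lay between -0.56 and -0.38 in each part. Position on the joined sequence follows the order of contigs in the reference and is not a position on a chromosome.

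Gene symbols could be placed on 74 of the 4443 even stretches (1.67%), which overlapped by 1 bp or more a region that the study had annotated in its supplementary lists. Such regions covered 255 stretches in all, of which 140 were mixed and 28 heavy. The study lists regions that it called different between sites, so the direction of these 74 is not independent evidence. Of the 74, 71 were below 0 and 3 above 0, with a median log2 fold change of -0.76, and 60 had an unadjusted edgeR quasi-likelihood p under 0.05 but none an adjusted one. That unadjusted threshold was passed by 24.2% of all tested stretches and by 35.1% of the even ones. The groups below are drawn from the 74, so 60 of 74 is the nearer reference for their counts. For 15 of the 74 the symbol came only from a list that was read as the study's comparison of other sites. Which list belongs to which sites was matched through the side-channel label alone and is uncertain. Of these, 13 were below 0, with a median of -0.53, beside -0.47 over all even stretches. Of the 74, 30 carried a symbol of 1 of 7 functional groups described next.

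Among the longest even stretches, 22 windows at 1547701 to 1549900 had no symbol. They had 59.0, 52.7 and 90.7 CPM in river pools 10, 11 and 12, against 101, 135 and 120 CPM in lake pools 1, 2 and 3 (log2 fold change -0.80, SE 0.22, adjusted edgeR p of 0.0862). Another, 19 windows at 4819901 to 4821800, carried cyc1.L, for cytochrome c1 of the mitochondrial respiratory chain. It had 59.0, 63.7 and 109 CPM in river pools 10, 11 and 12, against 88.6, 127 and 122 CPM in lake pools 1, 2 and 3. River pool 12 was above lake pool 1, so the sites overlapped (log2 fold change -0.53, SE 0.24, adjusted edgeR p of 0.184).

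Energy metabolism had stretches on both sides of 0. Of its 5 even stretches, 3 were below 0, and the 2 with the symbol COX1, subunit 1 of cytochrome c oxidase, which animals encode in the mitochondrial genome, were above 0. The shorter COX1 stretch (6 windows, 3615501 to 3616100) had 48.5, 28.0 and 21.4 CPM in river pools 10, 11 and 12, against 18.6, 11.1 and 17.9 CPM in lake pools 1, 2 and 3. Here river pool 10 was highest, and no river pool overlapped with the lake (log2 fold change 1.03, SE 0.32, adjusted edgeR p of 0.0876). The longer one (10 windows, 648201 to 649200) had 102, 45.0 and 66.3 CPM in the river pools, against 55.0, 45.1 and 43.6 CPM in the lake pools. It overlapped through river pool 11 (log2 fold change 0.58, SE 0.26, adjusted edgeR p of 0.179). The number of mitochondrial genomes per cell was not measured and its part in these counts was not tested.

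The stretch at 3944901 to 3945400 carried GAPDH, a glycolytic enzyme. It had 7.38, 8.23 and 11.4 CPM in river pools 10, 11 and 12, against 15.2, 20.0 and 20.6 CPM in lake pools 1, 2 and 3, with no overlap (log2 fold change -1.01, SE 0.29, adjusted edgeR p of 0.0862). Pepck, a key enzyme of gluconeogenesis, lay on 12 windows at 921701 to 922900 and overlapped between sites (log2 fold change -0.61, SE 0.29, adjusted edgeR p of 0.217).

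**Figure D5:**
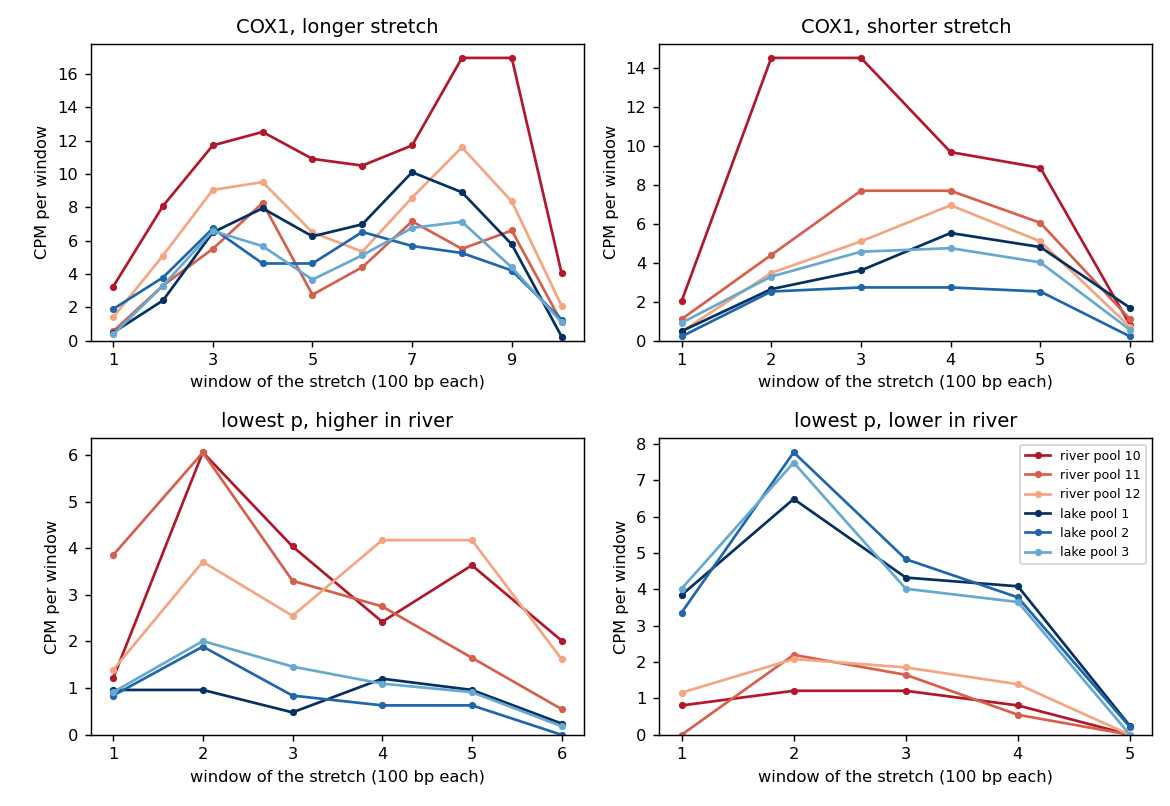
CPM per 100 bp window (y axes) along 4 even stretches (x axes, window number from the start of the stretch), with 1 line per pool. In the stretches with the lowest p the river pools lie on 1 side of the lake pools in the inner windows. In the shorter COX1 stretch river pool 10 lies highest over windows 2 to 5.

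Translation had 6 even stretches, all below 0, with a median log2 fold change of -0.93 (range -1.21 to -0.61). Of these, 5 had an unadjusted edgeR p under 0.05, as did 60 of the 74 with a symbol and 35.1% of all even stretches. They carried 5 proteins of the large ribosomal subunit (RPL7A, RPL9, RPL19, RPL35A and rpl27a) and aars, the enzyme that charges transfer RNA with alanine. RPL35A, on 5 windows at 2688401 to 2688900, had 8.15, 7.13 and 10.7 CPM in river pools 10, 11 and 12, against 15.2, 17.0 and 19.9 CPM in lake pools 1, 2 and 3. The sites did not overlap there (log2 fold change -0.97, SE 0.29, adjusted edgeR p of 0.0862). RPL7A, on 9 windows at 7906101 to 7907000, had 11.3, 7.68 and 18.5 CPM in the river pools, against 17.1, 20.2 and 22.3 CPM in the lake pools. River pool 12 overlapped with lake pool 1 (log2 fold change -0.61, SE 0.31, adjusted edgeR p of 0.237).

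Membrane traffic also had 6 even stretches below 0, with a median of -0.75. Of these, 4 had an unadjusted edgeR p under 0.05, as did 60 of the 74 with a symbol and 35.1% of all even stretches. They carried vps26a of the retromer, which returns receptors from endosomes, AP1M1 and AP1B1 of the clathrin adaptor AP-1, the small GTPases ARF6 and RAB8A, and EHD3 of endosome recycling. AP1B1 had 11.3, 4.39 and 15.0 CPM in river pools 10, 11 and 12, against 18.3, 25.3 and 21.2 CPM in lake pools 1, 2 and 3 (15737501 to 15738100, log2 fold change -0.99, SE 0.34, adjusted edgeR p of 0.0999). RAB8A was the least changed of them, with 17.1, 17.0 and 28.0 CPM in the river pools against 23.1, 26.0 and 27.2 CPM in the lake pools (13632501 to 13633100, log2 fold change -0.26, SE 0.26, adjusted edgeR p of 0.566). Its river pool 12 was above every lake pool.

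The chaperone of the endoplasmic reticulum, hspa5, lay on 11 windows at 12221601 to 12222700. It had 33.8, 22.5 and 52.7 CPM in river pools 10, 11 and 12, against 54.8, 79.4 and 65.4 CPM in lake pools 1, 2 and 3 (log2 fold change -0.84, SE 0.27, adjusted edgeR p of 0.0903). It was the only even stretch with a symbol of protein folding and breakdown, of 11 stretches with such a symbol.

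RNA handling had 3 even stretches, all below 0. These carried PUF60, a splicing factor, Ddx46, an RNA helicase of the spliceosome, and XRN1, the cytoplasmic exonuclease that degrades decapped RNA. Ddx46 had 8.93, 8.78 and 17.1 CPM in river pools 10, 11 and 12, against 20.0, 31.1 and 25.7 CPM in lake pools 1, 2 and 3 (10942401 to 10943100, log2 fold change -1.08, SE 0.31, adjusted edgeR p of 0.0862). PUF60 had 34.2, 30.2 and 53.6 CPM in the river pools, against 58.1, 57.1 and 56.8 CPM in the lake pools (2441701 to 2442800, log2 fold change -0.52, SE 0.23, adjusted edgeR p of 0.182). XRN1 was at -0.79 (52715501 to 52716100, SE 0.32, adjusted edgeR p of 0.145).

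Cytoskeletal symbols lay on 4 even stretches, all below 0, from -1.11 to -0.61. They were tubb4b, a beta tubulin, the kinesin motor KIF1A, kif1bp, a kinesin-binding protein whose symbol shares its stretch with vps26a, and kank1, a regulator of actin at the cell edge. KIF1A had 4.27, 10.4 and 9.12 CPM in river pools 10, 11 and 12, against 14.0, 23.4 and 13.8 CPM in lake pools 1, 2 and 3 (54427701 to 54428300, log2 fold change -1.11, SE 0.35, adjusted edgeR p of 0.0900). The most windows in this group, 11, were those of tubb4b at 3773701 to 3774800 (log2 fold change -0.61, SE 0.22, adjusted edgeR p of 0.122).

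Signalling had 6 even stretches, 5 below 0 and 1 above 0. Their symbols included the kinases HIPK2 and P38mapk, CSNK2B (the regulatory subunit of casein kinase 2) and the phosphatase catalytic subunit PPP1CA. Another was itpr1b, a receptor that releases calcium from the endoplasmic reticulum. HIPK2, on 15 windows at 4243301 to 4244800, had 31.1, 18.7 and 60.2 CPM in river pools 10, 11 and 12, against 62.4, 71.5 and 71.7 CPM in lake pools 1, 2 and 3. River pool 12 was just below lake pool 1 there, and river pool 11 was far below the lake pools (log2 fold change -0.86, SE 0.30, adjusted edgeR p of 0.109). PPP1CA differed in each river pool alike, with 6.60, 8.78 and 7.07 CPM in the river pools against 18.6, 18.3 and 18.3 CPM in the lake pools (15216601 to 15217100, log2 fold change -1.31, SE 0.28, adjusted edgeR p of 0.0862). P38mapk, a stress-activated kinase, overlapped between the sites, with 12.4, 14.3 and 18.9 CPM in the river pools against 10.5, 11.7 and 14.1 CPM in the lake pools (27702701 to 27703400, log2 fold change 0.35, SE 0.28, adjusted edgeR p of 0.474).

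Chosen after its values were seen, itpr1b had the lowest fold change of all 4443 even stretches. Its 5 windows at 62125101 to 62125600 had 4, 5 and 38 counts in river pools 10, 11 and 12, or 1.55, 2.74 and 8.66 CPM. The lake pools 1, 2 and 3 had 66, 99 and 122 counts, or 15.7, 21.1 and 22.1 CPM. The sites did not overlap, and river pool 12 was well above the other river pools (log2 fold change -2.001, SE 0.42, adjusted edgeR p of 0.0862).

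Stretches without a symbol held the lowest p-values in each direction. Highest in the river by p was the 6-window stretch at 52848901 to 52849500, with 18.6, 18.1 and 17.3 CPM in river pools 10, 11 and 12, against 4.76, 4.90 and 6.52 CPM in lake pools 1, 2 and 3. The 3 river pools lay close to each other and far above the lake (log2 fold change 1.72, SE 0.29, adjusted edgeR p of 0.0803). The stretch at 55029001 to 55029500 had 14.0, 15.4 and 9.35 CPM in the river pools, against 2.86, 3.41 and 4.16 CPM in the lake pools (log2 fold change 1.84, SE 0.35, adjusted edgeR p of 0.0862). At 60822301 to 60822800 there were 20.96, 21.40 and 25.30 CPM in the river pools, against 9.762, 4.259 and 7.242 CPM in the lake pools (log2 fold change 1.68, SE 0.31, adjusted edgeR p of 0.0862). This last stretch held the window of lowest p in the direction of the river, with 25, 18 and 46 counts in the river pools against 19, 8 and 16 in the lake pools (60822501 to 60822600, log2 fold change 1.77, SE 0.31, adjusted edgeR p of 0.0226).

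Lower in the river, the lowest p was that of the stretch at 27621601 to 27622100 (log2 fold change -1.92, SE 0.30, adjusted edgeR p of 0.0562). Its inner windows differed by -1.42 to -1.95, each lower in the river. River pool 12 had 6.38 CPM against 18.8 CPM in lake pool 1, its nearest lake pool in total count. The stretch at 54059201 to 54059800 had 6.99, 9.33 and 10.9 CPM in river pools 10, 11 and 12, against 25.7, 28.7 and 32.4 CPM in lake pools 1, 2 and 3 (log2 fold change -1.65, SE 0.27, adjusted edgeR p of 0.0766). A denser stretch at 16971001 to 16971600 had 18.6, 8.78 and 15.7 CPM in the river pools, against 36.7, 36.4 and 49.1 CPM in the lake pools (log2 fold change -1.47, SE 0.28, adjusted edgeR p of 0.0862). The window of lowest p in the direction of the lake was the third of a 6-window stretch at 54490701 to 54491300. It had 4, 6 and 20 counts in river pools 10, 11 and 12, against 41, 57 and 69 in lake pools 1, 2 and 3, and the whole stretch had a log2 fold change of -1.47 (adjusted edgeR p of 0.0862).

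The stretches at the extremes of evenness were not alike in the difference between sites. The most even had inner windows of 63 to 64 summed counts (21111801 to 21112300), with 6.60, 4.94 and 7.29 CPM in river pools 10, 11 and 12, against 10.0, 11.7 and 10.3 CPM in lake pools 1, 2 and 3 (log2 fold change -0.73, SE 0.31, adjusted edgeR p of 0.167). The next most even, at 41705801 to 41706300, overlapped between sites (log2 fold change -0.17, SE 0.29, adjusted edgeR p of 0.761). The least even, at 65429401 to 65429900, ran between 41 and 238 counts in its inner windows and had -0.51 (SE 0.25, adjusted edgeR p of 0.221). The next least even, at 32398701 to 32399200, had -0.01 (SE 0.28, adjusted edgeR p of 0.983). Within single pools, the variance to mean ratio of inner windows at equal depth had medians of 1.13, 1.00 and 1.63 in river pools 10, 11 and 12, against 1.43, 1.55 and 1.55 in lake pools 1, 2 and 3 (exact permutation p of 0.4). Independent counts of 1 level give a ratio of about 1 on average. Their median over stretches with few inner windows lies below 1, so a median of 1 is not the level of counting noise.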

How the data were processed

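MeDIP reads of 3 river and 3 lake pools had been trimmed, mapped with Bowtie2 to a transcriptome reference and counted in 739509 windows with MEDIPS by the authors. Tool versions and the build of the reference are not given in the sources used here. Per window, the deposited counts, not normalised, were used throughout. The authors also deposited an RPKM value per pool, the mean counts (a signal) and mean RPKM of each site, and edgeR results (a log2 fold change, a log2 CPM, a p-value and its adjustment), none of which were used. Members and lists were chosen with earlier results of these data known.

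Stretches were built with Python 3.11.15, pandas 2.3.3 and numpy 2.4.6. Counts per window and per stretch (at least 10 summed counts) were compared with the quasi-likelihood test of edgeR 4.0.16 (limma 3.58.1, R 4.3.3) after TMM scaling, using robust dispersions and Benjamini-Hochberg adjustment over all tested features at 0.05. The script was tested on simulated counts. DESeq2 1.42.0, the edgeR exact test, other scalings, no filter, other limits of the rule, a spacer of 5 windows and leaving out each pool were the alternatives. Values per pool were compared with exact two-sided permutation tests (scipy 1.17.1). Log2 ratios between pools used a pseudocount of 0.5 CPM. Pools are separate groups of animals of 1 site each, so p-values measure the spread between such pools. No molecular identifiers were used, so reads are not independent molecules.

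Named stretches were the 3 longest, the 2 most and 2 least even, the 3 of lowest p in each direction without overlap, the window of lowest p in each direction, and up to 5 per functional list by number of windows. The 3 stretches on each side of each limit are given as counts and medians only. Symbols were read from the study's supplementary lists, taken to lie on the same joined sequence, and letters in them may be misread. 1 stretch that the rule names is not reported here. Sequences and CpG content were not used here.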

Additional observations from a re-analysis of the deposited data

How the results depend on the processing

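The medians of log2 fold changes, the shares of counts, the end ratio, the evenness and the share of empty windows kept their direction under all alternatives. Apart from the medians, these were tested by exact permutation, where the smallest p possible with all pools was 0.1. No alternative could therefore pass the threshold, and their staying above it says nothing on stability. The difference in evenness moved by more than the spread between pools, to -0.67 with counts as deposited, against -0.24 at equal depth. Single inner windows had medians of only 4 to 22 counts per pool. Called even stretches numbered 0 in the main test, 3 with DESeq2 size factors, 112 with trended offsets, 468 without a filter, 433 with DESeq2, 730 with the edgeR exact test, and 0 to 2183 with 1 pool left out. Called windows numbered 251, against 656 with DESeq2 size factors, 164 with library size alone, 414 with trended offsets, 1403 without a filter, 0 with lake pools 2 and 3 summed, 145 with DESeq2, 1946 with the edgeR exact test, 161 with an upper limit of 180 counts, and 0 to 5093 with 1 pool left out. Stretches without overlap numbered 1693, against 1037 with a lower limit of 46 counts and 1847 to 3210 with 1 pool left out. The share with 1 sign was 59.4%, 54.6% with a lower limit of 21 counts, 65.8% with 46, and 51.9% to 69.0% with 1 pool left out. With lake pools 2 and 3 kept as 2 samples this share has the same value, since it comes from the same fit. The cause of these changes was not tested.

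Of 507 refits of named stretches, 402 kept direction and call, 97 kept direction and became called, and 8 changed sign. The stretch at 32398701 (-0.01) had 0.047 with DESeq2 size factors, 0.27 with trended offsets, 0.018 with lake pools 2 and 3 summed, 0.052 with DESeq2, and -0.21 to 0.15 with 1 pool left out. The stretch at 41705801 (-0.17) had 0.14 with trended offsets. No paired analysis was possible because no number occurs at both sites. The share of counts within windows of 31 to 240 counts was an alternative chosen after seeing the data.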
